A study of Homo sapiens with 2 samples.

Results

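The fatty acid synthesis genes are a list of 10 genes, ACLY, ACACA, ACACB, FASN, SCD, ELOVL5, ELOVL6, FADS1, FADS2 and MLXIPL. They were chosen by name from knowledge of the pathway, with earlier results of these data already known. Each was looked up by gene name in the expression tables of both libraries, where each matched exactly 1 locus, and none of these loci was joined with another gene. They are 10 of the 26225 gene names found in both libraries. Both libraries are from PLC, an established line of human liver cancer cells. One was made from cells with an empty lentiviral vector (EV, genotype WT in the labels) and the other from cells with PRSS35 over-expression, PRSS35 being a secreted protein of the serine protease family, and the labels give treatment as none for both. Each condition has a single library, so differences between them could not be set against replicates and carry no p-value. The study sequenced this RNA to tell secreted proteins that PRSS35 depletes from those whose transcripts are lower. The labels describe a DMEM medium for PLC cells with 25 mM glucose, 4 mM glutamine, 1 mM pyruvate and 10% serum, and they also describe serum starvation without saying whether it was applied to the sequenced cells. Both glucose and the lipids in serum are known to act on this pathway. The cells were infected with lentivirus and selected with puromycin, and whether a line is 1 clone or a pool is not stated.

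Fatty acid synthesis makes palmitate from the carbon of glucose and other fuels in the cytosol. Citrate leaves the mitochondria and is split to acetyl-CoA, acetyl-CoA is carboxylated to malonyl-CoA, and fatty acid synthase joins these units to palmitate, which is then elongated and desaturated at the endoplasmic reticulum. In the liver the genes of the pathway are switched on together after feeding by the sterol regulatory element-binding protein SREBP-1c, which answers to insulin, and by the carbohydrate response element-binding protein ChREBP, which answers to glucose, and many liver cancers keep them high.

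The values are FPKM as deposited, that is, fragment numbers corrected for the length of the transcript and the depth of sequencing, each with a lower and an upper bound from Cufflinks. Such an interval takes in error within a library only, and the number of fragments behind each value is not given in the tables. A change is the log2 ratio of PRSS35 over EV after 1 FPKM was added to each value, which shrinks the change of low genes, and its standard error (SE) was computed from the intervals, taken as 2 SE on either side. Genes whose FPKM averaged 1 or more were called expressed, which 11115 names were. Higher and lower refer to FPKM as deposited: dividing by the sum over all loci shifts every gene up by 0.71 on the log2 scale before the added 1 FPKM, as given at the end. In bulk RNA, fewer cells that express a gene and less RNA per cell cannot be told apart. PRSS35, on chromosome 6 of hg19, had an FPKM of 0.643 in the EV library and 1836 in the PRSS35 library, as the labels say. Past 2-fold, 303 expressed genes had a higher and 276 a lower level. These include all 215 expressed genes that were listed at 0 in 1 of the libraries. Among genes above 0 in both, the numbers were 201 and 163. The median log2 change of expressed genes was 0.06. The hepatocyte and liver cancer markers were all expressed (9 of 9), with KRT8, KRT18 and SERPINA1 between 2315 and 4239 FPKM. However, ALB was at only 4.05 and 5.21 FPKM and TTR at 1.56 and 1.61. SERPINA1 had 2528 FPKM in EV and 4239 in PRSS35, and KRT18 had 2781 and 2315, both with intervals apart. Of the 9 markers, 4 had intervals wholly higher and 2 wholly lower with PRSS35, against 25.2% and 15.5% of all expressed genes. Of the 4 leukocyte markers, PTPRC and CD3E were listed at 0 in both libraries, but LYZ was at 94.0 FPKM in EV and 103.7 in PRSS35 with intervals apart, and CD68, at a locus joined with MPDU1, was at 297.3 and 277.9. Both libraries are from an established cell line, and the source of the LYZ and CD68 values was not tested. The summed FPKM of the adipocyte markers was 0.0243 in EV and 0.158 in PRSS35, with ADIPOQ and LEP at 0 in both, that of the endothelial markers was 0.0373 and 0.0307, and that of the fibroblast markers was 1.72 and 2.03.

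Of the 10 genes, 9 had a higher FPKM with PRSS35 and only FASN had a lower one, where 60.2% of all expressed genes were higher. The stearoyl-CoA desaturase gene SCD showed the largest change, from 131.2 to 205.1 FPKM, and for SCD, FADS2, ACACA, FADS1 and ACLY the intervals of the libraries lay apart, as they did in this direction for 25.2% of all expressed genes. None of the 9 expressed genes changed by 2-fold, where 5.21% of all expressed genes did so in either direction. The summed FPKM of the 10 genes was 580.5 in EV and 696.0 in PRSS35, a ratio of 1.20, and without SCD the ratio was 1.09. The plot of levels shows every gene in both libraries.

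**Figure D1:**
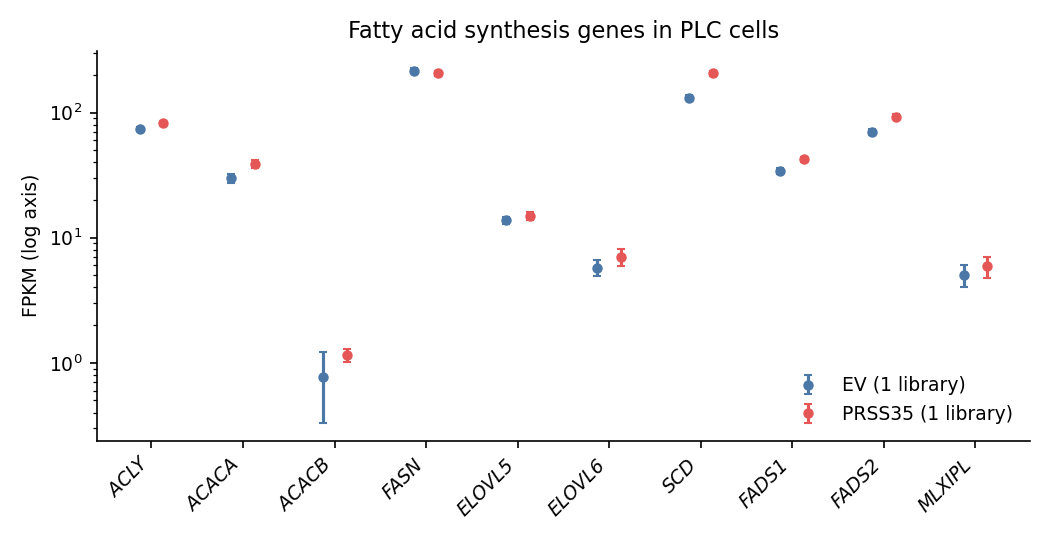
FPKM of the 10 fatty acid synthesis genes (log axis) in the EV and the PRSS35 library, 1 library each; bars are the Cufflinks intervals within a library. FASN (215.8 and 205.2) is the only gene that is lower with PRSS35, SCD shows the widest gap, and ACACB is near 1 FPKM in both libraries.

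Since SCD showed the largest change, the sequence before its transcription start is given here beside those of the elongase genes ELOVL5 and ELOVL6, which differ in the short motifs marked. The sequences are the 250 bases upstream of the start in RefSeq promoter windows on GRCh38.p14, another build than the hg19 of the expression tables, at chr10:100346983-100347232 on the plus strand for SCD, chr6:53348951-53349200 on the minus strand for ELOVL5 and chr4:110198616-110198865 on the minus strand for ELOVL6. Capitals mark the CCAAT box, bound by NF-Y, a known partner of SREBPs, on either strand (CCAAT or ATTGG), and the E-box CACGTG, which reads the same on both strands.

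SCD: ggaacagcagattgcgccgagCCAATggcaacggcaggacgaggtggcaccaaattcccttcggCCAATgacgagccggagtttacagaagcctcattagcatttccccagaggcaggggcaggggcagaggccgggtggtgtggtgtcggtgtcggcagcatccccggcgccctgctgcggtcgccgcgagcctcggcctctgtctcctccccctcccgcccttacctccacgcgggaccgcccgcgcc

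ELOVL5: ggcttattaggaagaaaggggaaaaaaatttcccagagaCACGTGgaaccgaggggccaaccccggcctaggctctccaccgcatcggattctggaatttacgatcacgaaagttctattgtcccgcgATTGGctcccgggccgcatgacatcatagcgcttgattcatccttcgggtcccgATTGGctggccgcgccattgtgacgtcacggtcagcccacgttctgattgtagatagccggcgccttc

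ELOVL6: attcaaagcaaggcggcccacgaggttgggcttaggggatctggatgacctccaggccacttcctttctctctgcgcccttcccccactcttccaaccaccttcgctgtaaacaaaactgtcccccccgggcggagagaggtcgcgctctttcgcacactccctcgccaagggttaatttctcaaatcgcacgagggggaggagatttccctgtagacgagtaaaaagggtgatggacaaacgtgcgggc

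SCD holds a pair of CCAAT boxes from -229 to -225 and from -186 to -182 relative to the start, both on the coding strand, and ELOVL5 holds a pair from -122 to -118 and from -68 to -64, both on the opposite strand, as well as the E-box from -211 to -206. ELOVL6 holds none of these. The GC box GGGCGG, also searched but not marked, is in ELOVL6 from -122 to -117. It is also in SCD from -33 to -28 and from -11 to -6, on the opposite strand. The RefSeq table has 14 windows for 9 of the 10 genes, each of 250 bases before to 50 bases after a start, and no entry was matched for FASN. CCAAT was present on either strand, counted once per window, in 8 of the 14 windows, from 6 genes, and in 34.6% of all 35116 windows. The GC box GGGCGG, bound by Sp1, was in 10 of the 14 windows and in 45% of all. The windows of ACLY overlap and share their CCAAT and GC box sites, so these window counts hold the same bases more than once. CACGTG was in 1 of the 14 and 7.26% of all, and TCACNCCAC, a form of the sterol regulatory element, was in 0 of the 14 and 1.13% of all. Matches to such short words are a description of the sequence and not evidence of binding.

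The first step, acetyl-CoA supply, belongs to ACLY, the ATP citrate lyase that splits citrate in the cytosol (minus strand of chromosome 17 of hg19, 40023170 to 40075275). ACLY stood at 74.1 FPKM (interval 71.8 to 76.3) in EV and 83.1 (interval 80.6 to 85.5) in PRSS35. The intervals did not overlap, although the log2 change of 0.16 ± 0.03 (SE within libraries) was small, and 33.0% of expressed genes had a higher log2 change. When the libraries were scaled by their upper quartile, the log2 change of ACLY was 0.10.

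Malonyl-CoA is made by the acetyl-CoA carboxylases. ACACA encodes the cytosolic form that feeds fatty acid synthesis (minus strand of chromosome 17, 35441927 to 35766902), and ACACB the form at the mitochondrial membrane whose malonyl-CoA restrains fatty acid oxidation (plus strand of chromosome 12, 109577202 to 109706030). ACACA stood at 29.8 FPKM (interval 27.3 to 32.3) in EV and at 39.0 (interval 35.9 to 42.0) in PRSS35, a log2 change of 0.38 ± 0.08 with intervals apart. ACACB was much lower, with 0.776 (interval 0.331 to 1.22) in EV and 1.15 (interval 1.02 to 1.29) in PRSS35. The intervals of ACACB overlapped, and its mean of 0.965 FPKM left it as the only one of the 10 genes under the expression filter. ACACA was thus 38.4 times the level of ACACB in EV (21.5 to 68.6 within 2 SE) and 33.8 times in PRSS35 (29.4 to 38.8).

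The ACACB value of the EV library is less certain than its level alone would give. Its interval reached 57.3% of the value on either side in EV against 11.5% in PRSS35. In the EV library Cufflinks also placed an unnamed locus of 256 bases inside ACACB, from 109592476 to 109592731, with an FPKM of 18.4 (interval 7.32 to 29.6), and the PRSS35 library has no such locus there. Whether fragments of the ACACB transcript were counted at that locus was not tested.

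FASN, the fatty acid synthase that builds palmitate (minus strand of chromosome 17, 80036214 to 80056106), had the highest level of the list in EV and stood level with SCD in PRSS35. Its FPKM was 215.8 (interval 206.7 to 224.9) in EV and 205.2 (interval 196.5 to 213.8) in PRSS35, so the intervals overlapped and the log2 change was -0.07 ± 0.04. It ranked 829 in EV and 839 in PRSS35 among the 11115 expressed genes. FASN was lower with PRSS35 as deposited, after scaling by the upper quartile or the sum over named loci and after centring on the median, and higher, with a log2 change of 0.64, when FPKM was divided by its sum over all loci, which includes the unnamed ones.

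The elongases ELOVL5 and ELOVL6 add carbon units to fatty acids, ELOVL6 to saturated and monounsaturated ones such as palmitate and ELOVL5 mainly to polyunsaturated ones. ELOVL5 (minus strand of chromosome 6, 53132196 to 53213977) was at 13.7 FPKM (interval 12.7 to 14.7) in EV and 14.9 (interval 13.9 to 15.9) in PRSS35. ELOVL6 (minus strand of chromosome 4, 110970229 to 111119876 in the EV library) had 5.76 (interval 4.90 to 6.62) and 6.99 (interval 5.89 to 8.10). For both the intervals overlapped, with log2 changes of 0.11 ± 0.07 and 0.24 ± 0.14. The ratio of ELOVL5 to ELOVL6 was 2.39 in EV and 2.13 in PRSS35, a log2 difference of -0.16 ± 0.17 that lies within its error.

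Desaturases put double bonds into fatty acids, and all 3 of the list were higher with PRSS35 with intervals apart. SCD, which turns stearate and palmitate into the monounsaturated oleate and palmitoleate (plus strand of chromosome 10, 102106772 to 102124588), was at 131.2 FPKM (interval 125.5 to 136.9) in EV and 205.1 (interval 196.3 to 213.8) in PRSS35. This is 56.3% more, with a log2 change of 0.64 ± 0.04, and SCD moved from rank 1231 to rank 840 among expressed genes. It was the only gene of the list past 1.5-fold, which 5.23% of expressed genes exceeded in this direction, and 4.52% of expressed genes had a higher log2 change.

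FADS1 and FADS2, the delta-5 and delta-6 desaturases of polyunsaturated fatty acid synthesis, lie head to head on chromosome 11. FADS1 (minus strand, 61567097 to 61584529) was at 34.3 FPKM (interval 32.6 to 36.1) in EV and 42.3 (interval 40.2 to 44.4) in PRSS35, a log2 change of 0.29 ± 0.05. FADS2 (plus strand, 61583675 to 61634826) had 70.0 (interval 66.6 to 73.3) and 92.5 (interval 88.2 to 96.8), a log2 change of 0.40 ± 0.05. FADS2 exceeded FADS1 in both libraries, by 2.04-fold in EV and 2.19-fold in PRSS35, and the log2 difference between these ratios, 0.10 ± 0.07, was less than 2 SE.

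The loci of FADS1 and FADS2 share 855 bases, and the library kit is not described as keeping the strand, so reads there cannot be assigned to one of them by strand. In the PRSS35 library, both lie inside a locus that Cufflinks joined from TMEM258, MIR611 and FTH1, the ferritin heavy chain gene, from 61556602 to 61735132 with an FPKM of 2911. In the EV library FTH1 (946.0 FPKM) and TMEM258 with MIR611 (1277 FPKM) are separate loci that do not reach FADS1 or FADS2. FADS2 is also the only gene of the list that was assembled from the reads in EV and kept its annotated locus in PRSS35, and the other 9 were assembled in both. Over the 1048 expressed genes with this mixed status and values above 0, the median log2 change was 0.02 and 53.6% were higher with PRSS35, against 0.05 and 56.9% over 6371 genes assembled in both. The part of this difference in assembly in the values of FADS1 and FADS2 was not tested.

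MLXIPL encodes ChREBP, the transcription factor that carries the glucose signal to lipogenic genes (minus strand of chromosome 7, 73007524 to 73038876 in the EV library). It was low, with an FPKM of 5.07 (interval 4.05 to 6.09) in EV and 5.89 (interval 4.80 to 6.99) in PRSS35. The intervals overlapped and the log2 change was 0.18 ± 0.17. MLX, its binding partner from the list of regulators, was at 34.5 and 38.5 FPKM.

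**Figure D2:**
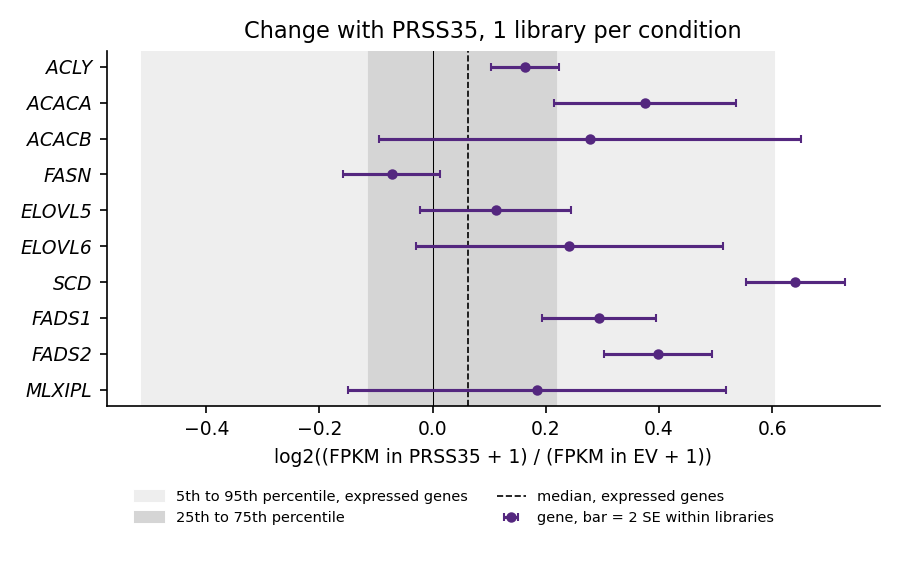
Log2 change of each gene between the PRSS35 and the EV library (points, with bars of 2 SE within libraries), over bands that hold the 25th to 75th and the 5th to 95th percentiles of the 11115 expressed genes and a dashed line at their median of 0.06. SCD, at 0.64, lies beyond the 95th percentile of 0.60, FASN lies below 0, and the other genes lie between 0.11 and 0.40.

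Read as a list, 8 of the 9 expressed genes were higher with PRSS35, where 60.2% of all expressed genes were. In 5 of the 9 the PRSS35 interval lay wholly above the EV interval, against 25.2% of all expressed genes and 29.2% of those with a mean of at least 5 FPKM, a level that all 9 reach. In 0 of the 9 it lay wholly below, against 15.5% of all expressed genes. These background shares include the genes listed at 0 in 1 library, whose interval there is 0 wide. The 9 genes had a median log2 change of 0.24, beside 0.06 for all expressed genes, and it was 0.21 without SCD. Since the joined locus touches FADS1 and FADS2, the list was also read without them, which left 3 of 7 genes with intervals apart and a median of 0.18. The genes were chosen with earlier results of these data known. They are controlled together and are not independent of each other, so these counts describe the pair of libraries.

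The order of the levels differed in a few places. In EV, FASN was followed by SCD, ACLY, FADS2, FADS1, ACACA, ELOVL5, ELOVL6, MLXIPL and ACACB, and in 2 of the 9 neighbouring pairs, ACLY with FADS2 and ELOVL6 with MLXIPL, the intervals overlapped. In PRSS35, SCD stood level with FASN, with overlapping intervals, and FADS2 stood above ACLY with intervals apart. The pairs FADS1 with ACACA and ELOVL6 with MLXIPL overlapped there.

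Ratios between genes of the same library are free of the scaling of that library. SCD had 0.608 times the FPKM of FASN in EV (0.572 to 0.646 within 2 SE) and 0.999 times in PRSS35 (0.941 to 1.06), a log2 difference of 0.72 ± 0.06. The ratio of FASN to ACACA was 7.24 in EV and 5.27 in PRSS35, a log2 difference of -0.46 ± 0.09, and that of FASN to ACLY was 2.91 and 2.47, a difference of -0.24 ± 0.05. FASN was therefore lower relative to ACACA and ACLY, which come before it, and to SCD. The level of SCD was also higher relative to ACLY (1.77 in EV and 2.47 in PRSS35) and to FADS2 (1.87 and 2.22). In shares of the summed FPKM, FASN held 37.2% of the list in EV and 29.5% in PRSS35, while SCD held 22.6% and 29.5%. The 3 desaturases together held 40.6% in EV and 48.8% in PRSS35. ACLY, at 12.8% and 11.9%, and the elongases, at 3.36% and 3.15% together, moved by less than 1 percentage point.

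**Figure D3:**
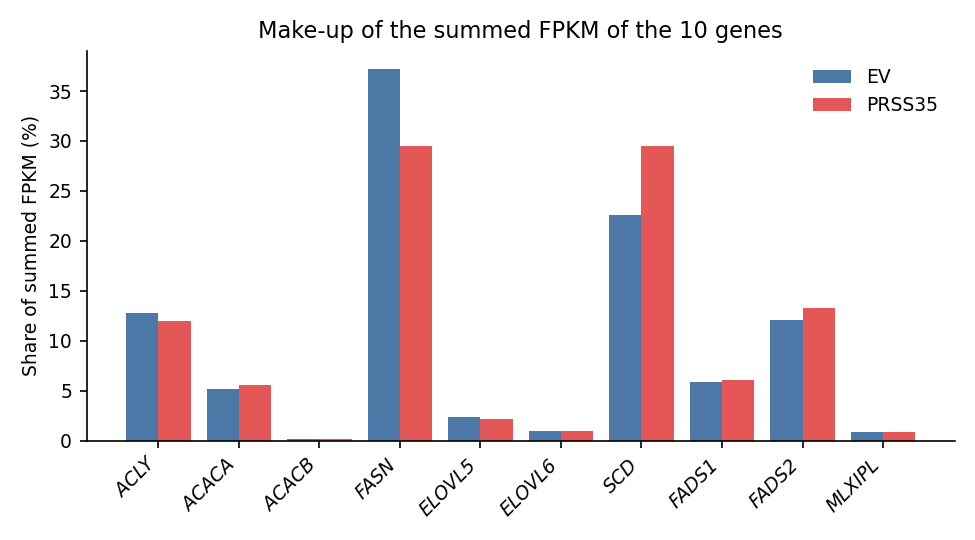
Share of each gene in the summed FPKM of the 10 genes (percent, bars from 0) in the EV and PRSS35 libraries, 1 library each. FASN has 37.2% and 29.5%, SCD has 22.6% and 29.5%, and the other genes move by 1.24 percentage points or less.

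The wider pathway was read from 7 lists, also chosen with earlier results of these data known. They held 65 genes, all of them matched, of which 59 were expressed. Of these, 41 were higher and 18 lower with PRSS35, and the intervals lay wholly higher for 24 and wholly lower for 9, to be read against the 60.2%, 25.2% and 15.5% of all expressed genes that were higher, wholly higher and wholly lower. The number of genes that were higher in each list below is likewise to be read against 60.2%, and several lie near it. The log2 changes of the 59 genes had a median of 0.15, between that of the fatty acid synthesis genes and that of all expressed genes. DGAT1, listed at 0 in EV, is in this median and in the counts of higher genes.

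The genes that control transcription of the pathway were mixed, with 8 of 12 higher and a median log2 change of 0.10. SREBF1, the gene of SREBP-1, was at 61.4 FPKM (interval 58.9 to 63.9) in EV and 92.1 (interval 88.7 to 95.4) in PRSS35, a log2 change of 0.58 ± 0.04. In the PRSS35 library its locus also carries the microRNA gene MIR6777, which lies in SREBF1. MBTPS1, the first protease that releases SREBPs from their membrane, was at 13.3 (interval 12.7 to 13.9) and 20.2 (interval 19.1 to 21.3), a log2 change of 0.57 ± 0.05. The lowest changes of this list were those of NR1H3, the liver X receptor alpha that switches on SREBF1, from 31.2 to 27.0 FPKM with intervals apart, and of USF1, a lipogenic E-box factor, from 48.3 to 44.8 with intervals that overlapped. INSIG1, a target and brake of SREBPs named here after its value was seen, had 18.4 (interval 16.9 to 20.0) and 24.4 (interval 22.5 to 26.4).

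Precursor and NADPH supply went both ways, with 5 of 7 genes higher and a median of 0.12. IDH1 and ACSS2, which supply cytosolic NADPH and acetyl-CoA from acetate, were higher, IDH1 at 48.8 and 59.8 FPKM and ACSS2 at 19.2 and 23.5. SLC25A1, the mitochondrial citrate carrier upstream of ACLY, was at 658.0 (interval 635.1 to 680.9) in EV and 550.3 (interval 531.0 to 569.6) in PRSS35 at a locus joined with CLTCL1 in both libraries. For these 3 genes the intervals lay apart.

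Cofactor and electron transfer genes had a median of 0.25, with 4 of 5 higher. CYB5A, the cytochrome b5 that passes electrons to the desaturases, was at 68.7 FPKM (interval 63.8 to 73.6) in EV and 93.6 (interval 87.5 to 99.6) in PRSS35, a log2 change of 0.44 ± 0.07. HLCS, which attaches biotin to the carboxylases, was at 3.49 and 4.46 with intervals apart. AASDHPPT, which arms the carrier domain of FASN, had 6.56 and 6.36, and CYB5R3, the reductase of cytochrome b5, 132.1 and 135.2, both with overlapping intervals.

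Among the kinase subunits and partners that act on the carboxylases, 6 of 7 expressed genes were higher and the median was 0.17. PRKAA2, a catalytic subunit of the AMP-activated kinase that inactivates acetyl-CoA carboxylase, was lower by 2-fold or more, with 2.45 FPKM (interval 1.97 to 2.93) in EV and 0.629 (interval 0.534 to 0.724) in PRSS35. It was assembled from the reads in EV only. PRKAA1, the other catalytic subunit, was at 3.29 and 3.84 with overlapping intervals. MID1IP1, which promotes polymerisation of acetyl-CoA carboxylase and was named after its value was seen, had 27.2 (interval 25.4 to 28.9) and 40.2 (interval 37.9 to 42.4), and its relative THRSP was listed at 0 in both.

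Of the other elongation and desaturation enzymes, 5 of 10 expressed genes were higher and 5 were lower, near the 60.2% of all expressed genes that were higher. Their median of 0.03 turned to -0.04 under upper quartile scaling, -0.03 after centring and -0.02 at a mean of at least 5 FPKM. FADS3 was at 31.3 and 37.2 FPKM and ELOVL2 at 23.1 and 26.3, both with intervals apart. HACD1, a dehydratase of the elongation cycle, was at 16.3 (interval 14.2 to 18.5) in EV and 11.3 (interval 10.1 to 12.5) in PRSS35, and ELOVL3 at 10.6 and 9.55 with overlapping intervals. The second stearoyl-CoA desaturase gene, SCD5, had 0 FPKM in EV and 0.045 with PRSS35, so nearly all of the stearoyl-CoA desaturase transcript was that of SCD.

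Mitochondrial fatty acid synthesis, a separate route that makes the precursor of lipoate, had a median of 0.24 with 5 of 8 genes higher. NDUFAB1, its acyl carrier protein, which is also a complex I subunit, had 132.6 FPKM in EV and 175.2 in PRSS35, and LIPT2 had 9.33 and 12.4. MECR, the reductase of this route, was at 13.1 (interval 11.1 to 15.1) and 7.86 (interval 6.93 to 8.79), and HSD17B8 at 32.2 and 31.0 with overlapping intervals. In activation and esterification, 8 of 10 expressed genes were higher and the median was 0.22. The intervals lay wholly higher for 4 genes and wholly lower for 2, the only lower ones. The summed FPKM of the 12 listed genes was 404.6 in EV and 405.8 in PRSS35. SLC27A5, a liver bile acid and fatty acyl-CoA ligase, had 13.8 (interval 12.7 to 14.9) and 39.5 (interval 35.7 to 43.3), and DGAT1, which makes triglyceride, had 0 FPKM in EV and 21.9 with PRSS35 at a locus joined with MIR6848. As a value of 0 at an assembled locus may be a failed estimate, no fold is given for DGAT1. It still counts among the 8 higher genes, the 4 with intervals wholly higher, the summed FPKM and the median. That median was 0.19 with single-name loci only, a setting that leaves DGAT1 out.

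**Figure D4:**
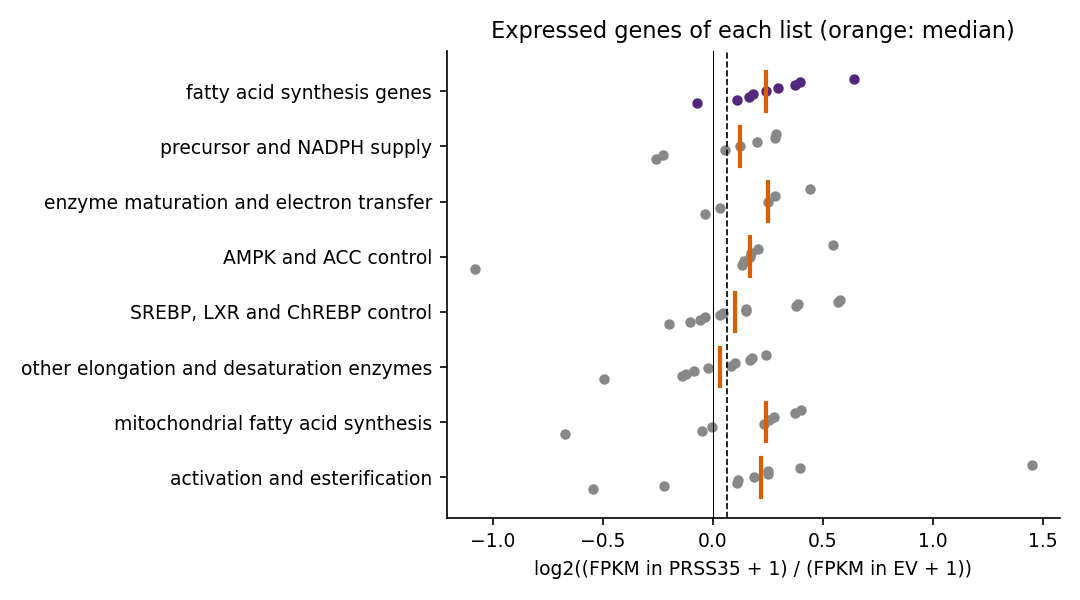
Log2 change between the PRSS35 and the EV library for the expressed genes of the fatty acid synthesis list (top, purple) and of 7 companion lists (grey), with the median of each list in orange and that of all expressed genes (0.06) as a dashed line. DGAT1, listed at 0 in EV, is not drawn but counts in its median. The fatty acid synthesis genes have a median of 0.24 and a single gene below 0.

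How the libraries are scaled decides how large the changes read. Summed over all loci, FPKM came to 2469030 for EV and 1508529 for PRSS35, whereas over named loci it was 856880 and 831520. Dividing by the sum over all loci raised the median of the log2 changes over all expressed genes to 0.68 and that of the 9 fatty acid synthesis genes to 0.87, with SCD at 1.35, FADS2 at 1.10, ACACA at 1.07 and FASN at 0.64. Under the other scalings, SCD stayed between 0.57 and 0.68. In the plot of the scalings the order of the genes with a mean above 5 FPKM is nearly the same each time, with SCD at the top and FASN at the bottom.

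**Figure D5:**
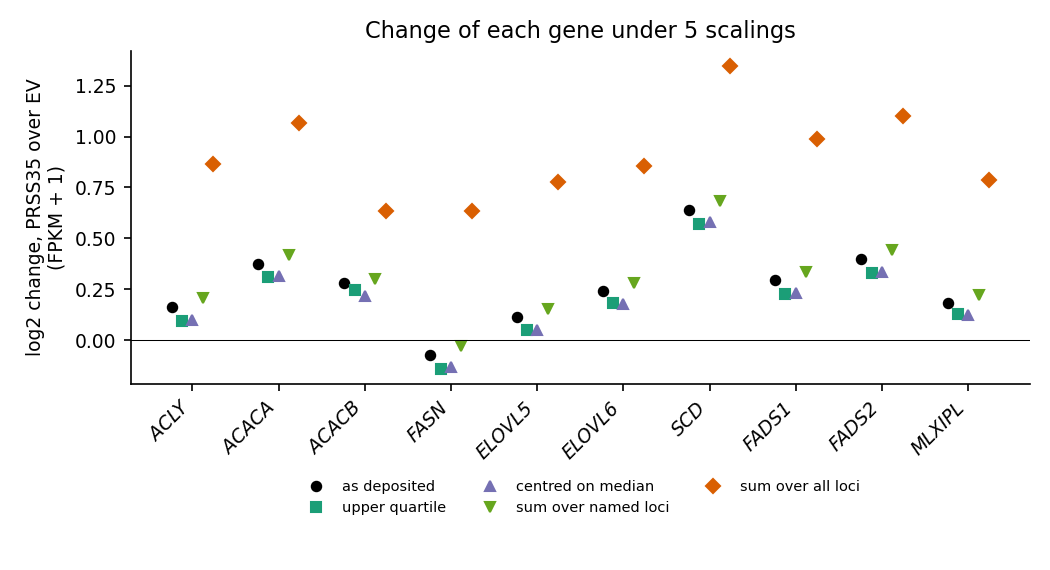
Log2 change of each gene, PRSS35 over EV, with FPKM as deposited, scaled by the upper quartile, centred on the median change, and divided by the sum over named loci or over all loci. With the sum over all loci every gene lies at 0.63 or above, and with each of the others FASN lies below 0 and the rest above 0.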

How the data were processed

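RNA of PLC cells with the empty vector or with PRSS35 was sequenced by the authors on an Illumina platform, 1 library each. They aligned the reads to hg19 with TopHat2 2.1.0 and ran Cufflinks, and the submitters' processing notes name Cuffdiff 2.2.1. The deposited tables hold FPKM per locus, with the bounds of its interval. The annotation release is not given in the sources used here.

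Names inside comma-joined loci were split, FPKM of loci sharing a name was summed, and loci off the main chromosomes and the 1 locus per library with a failed status were left out. With 1 library per condition there was no test. Changes were taken on the log2 scale after 1 FPKM was added. Calls used a 2-fold threshold or intervals that do not overlap, and were checked on data made with known changes. Those data held error within a library only, with intervals mostly narrower than the deposited ones. The check therefore cannot show how the calls behave under variation between cultures. The members and lists were chosen with earlier results of these data known. Companion genes were named by rule: those past 2-fold, and in lists without one the 2 highest and 2 lowest changes, of which 1 gene is not reported here. PRKAA1, MID1IP1, THRSP, INSIG1, MLX and SCD5 were named outside it. Alternatives were pseudocounts of 0.1 and 5 FPKM, 4 scalings, the highest locus per name, single-name loci, a 1.5-fold threshold, no filter and a mean of at least 5 FPKM. Leaving out FADS1 and FADS2, and keeping only genes above 0 in both libraries, were added after the data were seen. Promoter sequences are from RefSeq, and strands from GENCODE v44lift37. Python 3.11.15, numpy 2.4.6, pandas 2.3.3 and matplotlib 3.10.9 were used.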

Additional observations from a re-analysis of the deposited data

How the results depend on the processing

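The median log2 change of the fatty acid synthesis genes was above 0 under each of the 11 alternatives run for it, between 0.16 and 0.28 apart from division by the sum over all loci, which gave 0.87. That division put 3 of the 9 genes past 2-fold (SCD, FADS2 and ACACA), a 1.5-fold threshold put 1 (SCD), and the number was 0 under the other alternatives. The number with intervals wholly higher was 5 under upper quartile scaling and the sum over named loci, and 3 without FADS1 and FADS2. The number wholly lower went from 0 to 1 (FASN) under upper quartile scaling. FASN changed sign only with the sum over all loci, in 1 of its 8 alternatives. Over all expressed genes, 303 higher and 276 lower by 2-fold became 1254 and 184 with the sum over all loci, 192 and 162 with a pseudocount of 5 FPKM, 581 and 475 at 1.5-fold, 183 and 184 among single-name loci, 202 and 169 at a mean of at least 5 FPKM, and 201 and 163 among the 10900 genes above 0 in both libraries, of which 24.8% had intervals wholly higher and 14.8% wholly lower. The causes were not tested. The sum over all loci includes unnamed loci. No paired analysis was possible because there is 1 library for each of the conditions. Depth per gene is not given in the tables, so the intervals set the precision, and they leave out variation between cultures.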
